A study of Orbilia oligospora ATCC 24927 with 24 samples.

Results

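Transcript levels of 295 genes of the ubiquitin system were examined in the nematode-trapping fungus Arthrobotrys oligospora, out of 11479 annotated genes. They are the genes whose predicted protein carries, in the annotation deposited with the expression values, an F-box domain (242 genes), a ubiquitin-conjugating domain (UQ_con, 26 genes), a HECT domain (6), a cullin domain (4) or a ubiquitin carboxyl-terminal hydrolase domain (UCH, 18). AOL_s00081g294 carries both an F-box and a UQ_con domain and is counted in both families. Genes whose Swiss-Prot match names the proteasome or autophagy were to be left out, and 0 were. The rule uses annotation only, but it was set with earlier results of these data known. All 295 names occur in the tables of both experiments and match a locus tag of the RefSeq annotation.

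Ubiquitin is a small protein that is attached to other proteins by a relay of enzymes and can mark them for the proteasome. An E1 enzyme activates it, an E2 (the UQ_con family) carries it, and an E3 ligase brings E2 and substrate together. In SCF ligases a cullin is the scaffold and an F-box protein, held by Skp1, is the exchangeable part that picks the substrate. HECT ligases accept the ubiquitin themselves before they pass it on, and most UCH-domain enzymes take it off again. Nothing is known from the annotation about the substrates of most F-box genes of this fungus: 226 of the 242 have no Swiss-Prot match, and 221 carry no other Pfam domain.

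The 24 libraries, 3 in each of 8 groups, came from hyphae of strain ATCC 24927 grown on potato dextrose agar, in 2 experiments that each had their own wild type. The PkaC1 experiment compared wild type with a line whose label gives AoPkaC1 as deleted. PkaC1 is a catalytic subunit of PKA, the protein kinase that cAMP switches on. The Acy experiment compared wild type with a line whose label gives AoAcy as deleted, the adenylate cyclase that makes cAMP. Every strain was sampled without treatment (0 h, here "untreated") and 12 h after nematode extract was added to induce traps ("induced"). No untreated group was sampled at 12 h, so the extract and the 12 h of further time cannot be told apart. How many transformants a deletion strain rests on is not given in the sources used here. Separate cultures behind the 3 libraries of a group are not stated in the sample labels, so every p-value measures only the spread between these libraries, which may be technical.

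The genes annotated as targets were still listed in the libraries labelled deletion. AOL_s00080g284, the annotated adenylate cyclase, was at 15.59 to 17.07 TPM (a share of each library corrected for gene length) in untreated wild type and at 9.58 to 11.33 TPM in the untreated libraries labelled Acy deletion. After induction it was at 10.85 to 14.78 and 10.14 to 12.73 TPM. 2 genes are annotated as PKA catalytic subunits. AOL_s00043g480 was at 69.8% of its wild type untreated and at 49.7% induced, and AOL_s00078g405 at 89.8% and 96.5%. Which stretch of either gene was removed is not given by the labels. Below, "labelled deletion" therefore names the label and no measured absence. Wild type libraries of the PkaC1 experiment lay closer together than the others: members at 20 TPM or more had a median coefficient of variation of 3.27% and 3.91% there, against 8.13% to 13.3% in the other 6 groups. The summed TPM of 6 conidia markers was 562 to 8747 in the Acy experiment, nearly all of it from AOL_s00006g570, and 11.28 to 76.4 in the PkaC1 experiment. There it was 21.34 to 23.15 in untreated wild type against 39.92 to 40.56 in the labelled deletion, and 11.28 to 11.9 against 47.37 to 76.4 induced, and its part in the results was not tested. The untreated rise was mostly AOL_s00006g570 (0 to 0.81 against 12.61 to 13.16 TPM). Induced, AOL_s00081g178 (0 to 0.85 against 33.65 to 63.02 TPM) and AOL_s00006g570 (0 to 0.3 against 4.31 to 18.8 TPM) rose. AOL_s00079g472 was slightly lower (10.36 to 11.18 against 8 to 10.34 TPM), so the 6 did not move together. AOL_s00007g172, another of the 6, was listed at 0 in all libraries of the PkaC1 experiment. These are whole-hypha samples, so fewer cells of a type and less RNA per cell cannot be told apart.

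TPM are shares, so a change in a few abundant genes moves all others. Over all tested genes the median log2 fold change was 0.20 and -0.39 for the labelled PkaC1 deletion (untreated and induced) and 0.11 and 0.39 for the labelled Acy deletion. For induction it was -0.16 in wild type and -0.72 in the labelled deletion of the PkaC1 experiment, and -0.19 and 0.09 in the Acy experiment. Each count is therefore also given "scaled", that is, after every library was shifted to one common median log2 value. In the same order, the scaled median fold changes were -0.03 and 0.04 (PkaC1) and -0.04 and -0.11 (Acy) for the labelled deletions. For induction they were 0.06 and 0.16 in the PkaC1 experiment, and 0.04 and -0.03 in the Acy experiment. The induced difference between the experiments had -0.16, so scaled values are not all centred on 0. Fold changes are differences of mean log2(TPM + 1), given in parentheses ± SE with 3 libraries per group, from a limma fit over all tested genes with Benjamini-Hochberg adjustment. A gene is called higher or lower at adjusted p under 0.05. Outside the cullins and HECT ligases, most genes named below were picked among called genes whose compared groups did not overlap. Their lack of overlap is therefore no further support. Genes had to reach 1 TPM in 3 of the 12 libraries of an experiment. Of the 295 members 256 did so in the Acy experiment and 229 in the PkaC1 experiment. The 39 and 66 that did not were F-box genes apart from 2 UCH genes in each, and 35 members passed in neither.

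F-box genes were mostly low and the E2 genes high. The median of the 24-library mean was 7.22 TPM for F-box genes, 17.6 for UCH, 22.7 for HECT, 57.1 for cullins and 99.4 for UQ_con, against 19.6 for all annotated genes. The range within the F-box family ran from 0 to 637 TPM. 3 members were listed at 0 in all 24 libraries. A further 10, all F-box genes, were listed at 0 in every library of the PkaC1 experiment and at 1 TPM or more in every library of the Acy experiment. Among them was AOL_s00054g338, whose match is Aspergillus grrA, an F-box protein with leucine-rich repeats, with group means of 23.8 to 46.2 TPM in the Acy experiment. Genes with this pattern numbered 163 among the 11479, and no member had the reverse pattern. The experiments were processed into separate tables, so levels across them are set side by side without a test. Whether both were annotated or assembled alike is not given in the sources used here.

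Members were called higher far more often than lower in the labelled Acy deletion, and mostly not so in the labelled PkaC1 deletion. In the untreated Acy comparison 102 of 256 tested members were higher and 13 lower, where 42.1% of all 9617 tested genes were called (26.6% higher and 15.6% lower). In the induced comparison 173 were higher and 13 lower, beside 59.2% of all tested genes called (45.5% higher and 13.7% lower). After scaling the counts were 90 and 21 untreated, beside 21.5% and 23.4% of all genes, and 92 and 34 induced, beside 19.9% and 30.5%. At both times 96 members (37.5%) were higher, against 21.4% of all tested genes, and after scaling 65 (25.4%) against 13.1%. The summed conidia markers differed too, in opposite directions at the 2 times. They were at 562 to 926 TPM in untreated wild type against 1225 to 1377 TPM in the labelled deletion, and at 6909 to 8747 against 1067 to 1225 TPM induced. Nearly all of each sum was AOL_s00006g570. AOL_s00007g172 moved with it at both times. AOL_s00079g472 went the other way, at 11.33 to 12.27 against 7.96 to 9.45 TPM untreated and 3.96 to 7.08 against 7.82 to 26.15 TPM induced. The part of these markers in the result was not tested.

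In the PkaC1 experiment 64.7% of all 8977 tested genes were called between the untreated strains and 70.9% between the induced strains. Among 229 tested members 87 were higher and 40 lower untreated, beside 40.7% and 24% of all genes. Induced, 25 were higher and 119 lower, beside 18.9% and 52%. After scaling the counts were 61 and 70 untreated (all genes 29.8% and 33.8%) and 61 and 66 induced (34.5% and 31.1%), so the surplus in either direction did not hold on that scale. Induction called 69.7% of all genes in wild type and 81.6% in the labelled deletion. In wild type 34 members were higher and 110 lower (all genes 28.1% and 41.6%), and in the labelled deletion 13 were higher and 172 lower (19.4% and 62.2%). Scaled, the wild type counts were 57 higher (24.9%, all genes 38.2%) and 92 lower (40.2%, all genes 34.1%). Those of the labelled deletion were 69 higher (30.1%, all genes 43.6%) and 81 lower (35.4%, all genes 32.4%).

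Induction moved few members in the Acy experiment. In its wild type 28.6% of all tested genes were called (9.2% higher and 19.4% lower), with 15 members higher and 24 lower. After scaling 35 were higher and 10 lower (all genes 15.6% and 8.89%), so the surplus turned. In its labelled deletion 4.99% were called (3.66% higher and 1.33% lower), with 10 members higher and 0 lower, or 7 and 1 after scaling (all genes 2.84% and 2.3%). The count of 10 ran from 2 to 24 as single libraries were left out: it was 2 without induced labelled deletion replicate 1 or 2, and 24 without replicate 3.

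**Figure D1:**
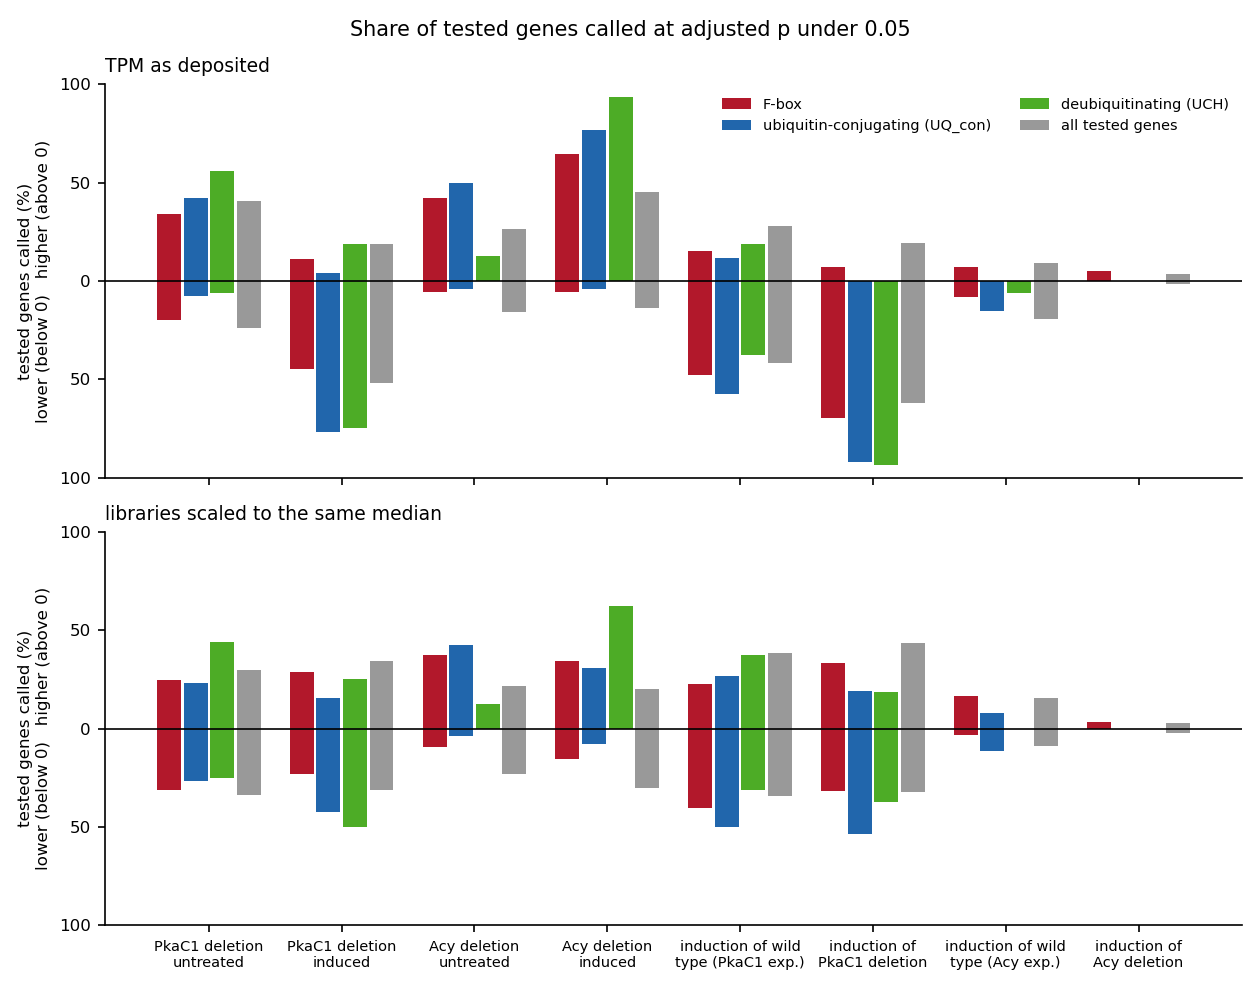
Percentage of tested genes called higher (bars above 0) and lower (bars below 0) at adjusted p under 0.05 in 8 comparisons, for F-box, UQ_con and UCH members and for all tested genes (grey), on TPM as deposited (top) and with libraries scaled to the same median (bottom). F-box and UQ_con bars point mostly upward in both labelled Acy deletion comparisons on either scale, and the untreated F-box share is 42.4% on TPM and 37.6% scaled.

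In the labelled Acy deletion, 87 of 205 tested F-box genes were higher untreated (42.4%, all genes 26.6%) and 12 lower (5.85%, all genes 15.6%). Induced, 132 were higher (64.4%, all genes 45.5%) and 12 lower (5.85%, all genes 13.7%). After scaling, 77 were higher (37.6%, all genes 21.5%) and 19 lower untreated, and 71 (34.6%, all genes 19.9%) and 32 induced. The median log2 fold change of the tested F-box genes was 0.32 untreated and 0.65 induced, against 0.11 and 0.39 over all genes. In the authors' deposited tables, with their own adjusted p under 0.05, 77 F-box genes were higher and 18 lower untreated, where all genes gave 2084 and 1938. The authors' deposited tables list 84 higher and 26 lower after induction, where all genes gave 2571 and 2563.

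Several F-box genes with large increases in the labelled Acy deletion have no Swiss-Prot match. AOL_s00054g408 was at 2.67, 3.09 and 1.95 TPM in untreated wild type and at 24.4, 35.02 and 30.3 TPM in the untreated labelled Acy deletion (3.11 ± 0.269, adjusted p = 1.97e-06). In the induced groups it was at 2.94, 1.07 and 1.55 and 55.7, 41.9 and 29.9 TPM (3.94 ± 0.269, adjusted p = 1.67e-07). All labelled deletion libraries lay above all wild type libraries at both times. AOL_s00080g368 was at 0.84, 1.41 and 0.48 TPM in untreated wild type and 10.3, 11.04 and 12.2 TPM in the labelled deletion (2.70 ± 0.225, adjusted p = 1.42e-06). AOL_s00079g285 was at 0.25, 0.25 and 0.20 TPM in induced wild type and 14.1, 10.3 and 9.80 TPM in the labelled deletion (3.32 ± 0.181, adjusted p = 2.61e-08). AOL_s00080g116 was at 8.42, 15.6 and 8.20 and 51.8, 61.7 and 48.5 TPM in the untreated groups (2.28 ± 0.226, adjusted p = 5.76e-06). In none of these pairs did the groups overlap, as the choice of genes required.

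A run of 4 neighbouring F-box genes, AOL_s00076g100 to AOL_s00076g103 in the locus tag order of RefSeq assembly AOL24927 1.0, was higher in the labelled Acy deletion at both times, apart from the induced AOL_s00076g102 after scaling. AOL_s00076g100 was at 51.04, 44.9 and 40.3 TPM in untreated wild type and 178, 202 and 191 TPM in the labelled deletion (2.05 ± 0.246, adjusted p = 2.78e-05). In the induced groups it was at 36.02, 14.96 and 19.4 and 316, 271 and 224 TPM (3.55 ± 0.246, adjusted p = 1.86e-07), so the groups stood far apart at both times. AOL_s00076g101 was at 3.04, 1.03 and 1.60 against 11.9, 12.5 and 11.8 TPM untreated (2.24 ± 0.269, adjusted p = 2.81e-05), with every labelled deletion library above every wild type library. AOL_s00076g103 was at 5.12, 4.34 and 3.52 against 18.3, 22.01 and 17.5 TPM (1.93 ± 0.194, adjusted p = 6.36e-06). AOL_s00076g102 was at 56.8, 59.3 and 51.1 against 82.2, 76.8 and 78.99 TPM (0.50 ± 0.119, adjusted p = 0.00443). Its induced difference of 0.49 was -0.00362 after scaling (adjusted p = 0.982), whereas the other 3 genes stayed called on that scale. In the PkaC1 experiment AOL_s00076g100 went the other way, at 58.1, 64.4 and 63.05 TPM in induced wild type and 25.3, 26.4 and 21.6 TPM in the induced labelled deletion (-1.31 ± 0.0939, adjusted p = 4.38e-07). The difference between both labelled deletion effects was 4.86 ± 0.282, adjusted p = 1.90e-11 by limma in the joint fit of 24 libraries. The run did not reverse as a whole: AOL_s00076g101 was called higher in the labelled PkaC1 deletion too, at both times.

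Neighbouring F-box genes were compared by their calls. The family has 29 pairs with consecutive locus tags, which hold 52 of its 242 genes, and 22 pairs were tested in the Acy experiment and 17 in the PkaC1 experiment. In the labelled Acy deletion both genes of a pair were higher in 7 pairs untreated and 11 induced, both were lower in 0, and they were called in opposite directions in 2 untreated and 0 induced. In the labelled PkaC1 deletion 0 pairs were both higher at either time, 1 was both lower untreated and 2 induced, and 2 and 1 were called in opposite directions. With 12 F-box genes lower at each time in the Acy experiment, few opposite pairs could occur there. As many F-box genes were higher there, pairs with both higher also arise without a link between neighbours. No share over all neighbouring gene pairs was computed, so these counts do not show that neighbours move together. How reads shared by near-identical copies were counted, and whether strand was used, is not given in the sources used here. Values of close relatives within this family may be mixed.

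A smaller set of F-box genes was lower in the labelled Acy deletion. AOL_s00188g344 was at 53.4, 103 and 58.4 TPM in untreated wild type and 16.5, 12.5 and 9.80 TPM in the labelled deletion (-2.34 ± 0.236, adjusted p = 6.44e-06). AOL_s00054g614 was at 84.04, 88.3 and 80.4 TPM in induced wild type and 32.5, 29.1 and 26.7 TPM in the labelled deletion (-1.49 ± 0.167, adjusted p = 1.12e-05). AOL_s00076g155 was at 85.1, 41.7 and 85.8 and 14.3, 22.1 and 17.5 TPM untreated (-1.87 ± 0.294, adjusted p = 0.000253) and at 55.5, 41.6 and 42.7 and 8.93, 6.77 and 13.8 TPM induced (-2.17 ± 0.294, adjusted p = 5.52e-05). For each of these genes the wild type libraries were all the higher ones. AOL_s00076g155 was also listed at 0 in all 6 labelled PkaC1 deletion libraries, beside 8.86, 10.2 and 6.51 TPM in untreated wild type there.

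**Figure D2:**
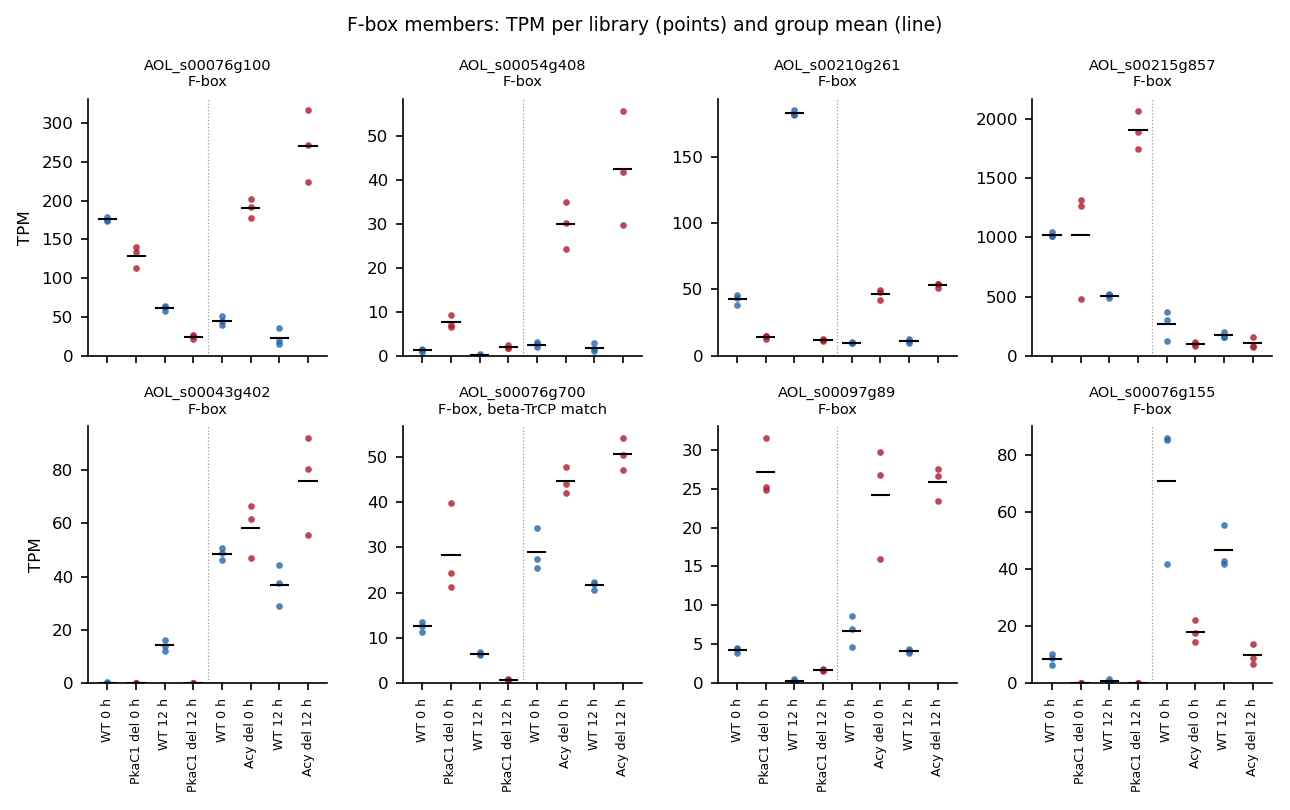
TPM (vertical axes, from 0) of 8 F-box genes in each of the 24 libraries (points; blue wild type, red labelled deletion, "del") with the mean of each group of 3 (line); the dotted line parts the PkaC1 experiment (left) from the Acy experiment (right). AOL_s00076g100 and AOL_s00210g261 are higher in the red groups on the right and lower in them on the left, and AOL_s00043g402 is at 0 in both red groups on the left.

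Several F-box genes with a recognisable relative also differed. AOL_s00007g152 matches Aspergillus somA, a transcriptional activator that acts in the PKA pathway of that fungus. It was at 9.51, 8.43 and 7.40 TPM in untreated wild type and 15.8, 20.1 and 16.5 TPM in the labelled deletion (0.96 ± 0.184, adjusted p = 0.00107), and at 7.32, 4.87 and 7.02 and 30.9, 29.1 and 22.4 TPM after induction (1.95 ± 0.184, adjusted p = 2.69e-06). The labelled deletion was the higher group in every library at both times. AOL_s00076g700 matches beta-TrCP, a WD-repeat F-box protein of animals, and was at 20.6, 22.00 and 22.4 TPM in induced wild type and 50.5, 54.1 and 47.1 TPM in the labelled deletion (1.18 ± 0.133, adjusted p = 1.13e-05). AOL_s00043g577 matches sconB, an SCF receptor that regulates sulphur metabolism in Aspergillus. It was at 7.42, 4.05 and 6.46 TPM in untreated wild type and 10.6, 14.8 and 14.2 TPM in the labelled deletion (1.04 ± 0.212, adjusted p = 0.0016), and at 11.2, 8.74 and 8.26 and 8.55, 8.22 and 10.4 TPM induced, where the groups overlapped. The change of its response to induction (-1.09 ± 0.3, adjusted p = 0.0278) was lost without untreated labelled deletion replicate 3, induced labelled deletion replicate 1 or 2, or induced wild type replicate 1 or 2 (-0.97 to -1.13). AOL_s00080g127 carries a cyclic nucleotide-binding domain, the kind of domain through which PKA regulatory subunits sense cAMP, beside its F-box. It was at 13.1, 10.5 and 10.5 and 10.7, 14.1 and 9.87 TPM in the untreated Acy groups, which overlapped. In the PkaC1 experiment it was lower in the labelled deletion, at 10.6, 11.6 and 12.8 against 15.8, 15.4 and 15.5 TPM untreated (-0.39 ± 0.0879, adjusted p = 0.00228) and at 8.06, 7.40 and 8.09 against 15.4, 14.6 and 14.6 TPM induced (-0.84 ± 0.0879, adjusted p = 6.90e-06). The untreated call ended when both wild type groups were reduced to 1 library each.

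In the PkaC1 experiment single F-box genes changed strongly in either direction. AOL_s00215g857, the most abundant F-box gene of the 242, was at 509, 492 and 522 TPM in induced wild type and 1886, 1748 and 2069 TPM in the induced labelled deletion (1.90 ± 0.292, adjusted p = 0.000128). Untreated, it was at 1044, 1009 and 1009 and 482, 1317 and 1267 TPM, with 1 labelled deletion library below and 2 above all wild type libraries. It thus fell on induction in wild type (-1.01 ± 0.292, adjusted p = 0.00914) and rose in the labelled deletion (1.03 ± 0.292, adjusted p = 0.00657), but the wild type call ended after scaling (-0.78, adjusted p = 0.0616) and with both wild type groups reduced to 1 library each. The untreated labelled Acy deletion was lower, at 84.02, 96.9 and 119.9 TPM against 368, 126 and 305 TPM (-1.28 ± 0.353, adjusted p = 0.011). That call ended when wild type replicate 1 was left out (log2 fold change -0.98).

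AOL_s00210g261 rose on induction in wild type, from 43.4, 46.1 and 38.4 to 185, 182 and 181 TPM (2.08 ± 0.0943, adjusted p = 4.06e-09), and was at 12.5, 15.1 and 15.3 and 11.3, 12.96 and 12.1 TPM in the labelled PkaC1 deletion. The labelled deletion was lower at both times (-1.51 and -3.81, adjusted p = 9.04e-08 and 1.15e-10). The same gene was at 9.74, 10.4 and 9.98 TPM in untreated wild type of the Acy experiment and 41.8, 49.9 and 48.2 TPM in the labelled deletion (2.10 ± 0.128, adjusted p = 1.04e-07). Its labelled deletion effects thus had opposite signs, and their untreated difference was 3.61 ± 0.15, adjusted p = 1.83e-13. AOL_s00043g402 was at 12.3, 13.97 and 16.4 TPM in induced wild type of the PkaC1 experiment and was listed at 0 in all 6 labelled deletion libraries. In the Acy experiment it was at 48.8, 50.9 and 46.2 TPM in untreated wild type and 61.5, 66.6 and 46.9 TPM in the labelled deletion, and these groups overlapped.

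AOL_s00097g89 was at 4.36, 3.86 and 4.55 TPM in untreated wild type and 31.5, 25.2 and 24.8 TPM in the labelled PkaC1 deletion (2.41 ± 0.137, adjusted p = 4.05e-08). It was also higher in the untreated labelled Acy deletion, at 29.7, 26.8 and 15.98 against 4.65, 8.61 and 6.91 TPM (1.69 ± 0.234, adjusted p = 8.90e-05). AOL_s00215g718 was at 8.26, 9.61 and 10.9 and 23.4, 38.3 and 37.6 TPM (1.66 ± 0.181, adjusted p = 1.04e-05), with the labelled PkaC1 deletion above wild type in every library. Lower in the untreated labelled PkaC1 deletion was AOL_s00076g327, at 4.25, 8.82 and 10.9 against 41.2, 40.2 and 38.5 TPM (-2.27 ± 0.245, adjusted p = 9.48e-06). AOL_s00076g700, the beta-TrCP match, was at 11.4, 13.6 and 12.7 and 39.7, 24.3 and 21.2 TPM in the untreated groups and at 6.93, 6.20 and 6.51 and 0.83, 0.94 and 0.63 TPM in the induced groups. It was higher in the labelled deletion untreated (1.07, adjusted p = 0.000474) and lower induced (-2.07, adjusted p = 2.83e-06), and both groups stood apart at both times. The untreated call ended when both wild type groups were reduced to 1 library each.

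On induction in the PkaC1 experiment, 27 of 178 tested F-box genes rose (15.2%, all genes 28.1%) and 85 fell (47.8%, all genes 41.6%) in wild type. After scaling 40 rose (22.5%, all genes 38.2%) and 72 fell (40.4%, all genes 34.1%). AOL_s00173g69 went from 16.1, 16.2 and 18.4 TPM in untreated wild type and 25.4, 25.8 and 33.8 TPM in the labelled deletion to 0 in all 6 induced libraries. Induced libraries of the Acy experiment held 7.72, 3.50 and 3.93 TPM in wild type and 15.2, 17.1 and 18.8 TPM in the labelled deletion. AOL_s00081g53 fell in wild type of the PkaC1 experiment from 75.2, 76.1 and 80.1 to 14.9, 13.8 and 14.7 TPM (-2.34 ± 0.188, adjusted p = 4.81e-07). AOL_s00083g222 rose in both strains of that experiment, from 0.10, 0.23 and 0.23 to 7.37, 8.80 and 8.02 TPM in wild type (2.93 ± 0.147, adjusted p = 9.15e-09) and from 1.61, 0.77 and 1.06 to 11.3, 11.9 and 11.3 TPM in the labelled deletion (2.56 ± 0.147, adjusted p = 1.83e-08). AOL_s00081g69 rose in wild type of the Acy experiment from 2.25, 2.38 and 3.21 to 14.4, 16.3 and 9.89 TPM (1.99 ± 0.188, adjusted p = 1.45e-05), as did AOL_s00081g47, from 7.76, 7.85 and 3.16 to 20.5, 14.5 and 23.4 TPM (1.55 ± 0.315, adjusted p = 0.00363). Neither gene had overlapping groups there.

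Cullins, the scaffolds of the ligases, were all 4 lower in the induced labelled PkaC1 deletion, on TPM (where 52% of all genes were lower) and after scaling (31.1%; scaled median -0.56). AOL_s00004g454, the cullin-4 match, was at 21.2, 21.8 and 24.03 TPM in induced wild type and 4.80, 3.51 and 4.44 TPM in the labelled deletion (-2.16 ± 0.128, adjusted p = 1.03e-07). Untreated, it was the other way, at 17.3, 12.8 and 14.5 and 27.1, 24.9 and 23.01 TPM (0.72 ± 0.128, adjusted p = 0.000483), and the difference of both responses to induction was -2.88 ± 0.182, adjusted p = 1.92e-07. AOL_s00080g294, the cullin-3 match that in other fungi and animals works with BTB proteins, was at 140.0, 136 and 139 and 90.4, 88.5 and 78.7 TPM (-0.69 ± 0.0933, adjusted p = 5.21e-05). AOL_s00083g90, the APC2 match, a scaffold of the anaphase-promoting complex, was at 18.6, 18.1 and 18.5 and 6.78, 8.39 and 6.54 TPM (-1.25 ± 0.124, adjusted p = 5.10e-06). No induced labelled deletion library reached any wild type library for these 3 genes.

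AOL_s00109g29, the cullin-1 match and so the scaffold of SCF ligases, was at 53.9, 56.6 and 54.2 TPM in induced wild type of the PkaC1 experiment and 32.2, 35.4 and 29.7 TPM in the labelled deletion (-0.74 ± 0.0816, adjusted p = 1.03e-05; scaled -0.31). In the Acy experiment it was higher in the labelled deletion, at 236, 250.3 and 179 against 136, 136 and 129.7 TPM untreated (0.71 ± 0.172, adjusted p = 0.00502) and at 368, 321 and 254 against 117, 97.1 and 138 TPM induced (1.41 ± 0.172, adjusted p = 2.32e-05). Both differences stayed called after scaling (0.56 and 0.91). It was the cullin called in both Acy comparisons on both scales, and the difference between the induced effects of the labelled deletions was 2.15 ± 0.197, adjusted p = 1.23e-08. AOL_s00080g294 and AOL_s00083g90 were also higher in the induced labelled Acy deletion (0.75 and 0.49), but both calls ended after scaling, where the values were 0.25 and -0.01. For AOL_s00083g90 the call also ended without induced labelled deletion replicate 1 (0.39) or induced wild type replicate 2 (0.35). AOL_s00004g454 was at 58.1, 40.4 and 53.01 TPM in untreated wild type of that experiment and 32.7, 44.1 and 33.5 TPM in the labelled deletion, and these groups overlapped.

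Most E2 genes called in the labelled Acy deletion were higher, and most called on induction in the PkaC1 experiment fell. In the untreated Acy comparison 13 of 26 were higher (50%, all genes 26.6%) and 1 lower, and after scaling 11 (42.3%, all genes 21.5%) and 1. In the induced comparison 20 were higher (76.9%, all genes 45.5%) and 1 lower, and after scaling 8 (30.8%, all genes 19.9%) and 2. The largest increases were in E2 genes with further domains. AOL_s00076g122, an E2 with a von Willebrand type A domain whose match is a viral E2/E3 protein, was at 50.1, 37.4 and 49.9 TPM in untreated wild type and 142, 221 and 127 TPM in the labelled deletion (1.78 ± 0.271, adjusted p = 0.000192). In the induced groups it was at 16.04, 7.39 and 10.8 and 253, 187 and 159 TPM (4.05 ± 0.271, adjusted p = 1.42e-07). It fell on induction in wild type (-1.96, adjusted p = 0.000288), and the response differed between the strains (2.27 ± 0.384, adjusted p = 0.00309). The labelled PkaC1 deletion was higher for this gene too, at 19.99, 25.3 and 22.3 against 9.18, 8.73 and 9.17 TPM induced (1.23 ± 0.116, adjusted p = 3.49e-06).

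AOL_s00078g218 and AOL_s00109g154 each join an E2Q-like domain to a PARP domain, the catalytic part of enzymes that add ADP-ribose. AOL_s00078g218 was at 19.4, 19.8 and 16.8 TPM in untreated wild type and 67.6, 87.02 and 62.9 TPM in the labelled Acy deletion (1.89 ± 0.186, adjusted p = 5.32e-06), and at 12.3, 8.87 and 12.3 and 120.1, 93.6 and 78.5 TPM induced (3.01 ± 0.186, adjusted p = 6.76e-08). AOL_s00109g154 was at 22.1, 18.9 and 18.4 and 46.99, 60.6 and 44.1 TPM untreated (1.30 ± 0.188, adjusted p = 0.000124) and at 16.1, 10.8 and 14.5 and 93.96, 80.04 and 63.1 TPM induced (2.43 ± 0.188, adjusted p = 4.48e-07). The groups of both genes stood apart at both times. AOL_s00007g554, orthologue of the general yeast E2 enzymes UBC4 and UBC5 and the most abundant member of its family, was at 781, 714 and 943 TPM in induced wild type and 1774, 1672 and 1283 TPM in the labelled deletion (0.95 ± 0.144, adjusted p = 0.000137). The exception was AOL_s00054g266, whose orthologue group is that of BIRC6, a very large E2 of animals. It was at 89.4, 56.98 and 80.2 TPM in untreated wild type and 14.6, 14.4 and 12.3 TPM in the labelled Acy deletion (-2.35 ± 0.215, adjusted p = 2.93e-06).

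In the PkaC1 experiment 3 E2 genes rose and 15 fell (57.7%, all genes 41.6%) on induction in wild type. After scaling 7 rose and 13 fell (50%, all genes 34.1%). In the labelled deletion 0 rose and 24 fell (92.3%, all genes 62.2%), and after scaling 5 rose and 14 fell (53.8%, all genes 32.4%), with a scaled median of -0.55. AOL_s00007g335, the other UBC4/UBC5 orthologue, fell from 242, 242 and 248 to 81.7, 73.1 and 86.1 TPM in wild type (-1.59 ± 0.0801, adjusted p = 9.23e-09) and from 319.7, 283 and 266 to 71.8, 77.1 and 77.8 TPM in the labelled deletion (-1.92 ± 0.0801, adjusted p = 1.47e-09). AOL_s00075g157, the UBC12 match that conjugates NEDD8, the small modifier that activates cullins, fell from 658, 671 and 682 to 281, 290.3 and 278 TPM in wild type (-1.24 ± 0.095, adjusted p = 3.09e-07). Its fall in the labelled deletion (-0.95) was -0.07 after scaling and no longer called. Between the induced strains 1 E2 gene was higher and 20 lower in the labelled deletion (all genes 18.9% and 52%). After scaling the counts were 4 (15.4%, all genes 34.5%) and 11 (42.3%, all genes 31.1%). AOL_s00083g398, the match of UBE2J1, a membrane-bound E2 of the endoplasmic reticulum, was at 99.3, 87.2 and 95.4 and 31.7, 34.1 and 28.9 TPM (-1.55 ± 0.105, adjusted p = 2.74e-07). AOL_s00043g774, the match of UBE2S, which lengthens ubiquitin chains for the anaphase-promoting complex in animals, was at 4.60, 3.83 and 3.72 TPM in untreated wild type and 25.2, 13.9 and 15.7 TPM in the untreated labelled deletion (1.89 ± 0.246, adjusted p = 4.26e-05). No wild type library of that pair reached a labelled deletion library.

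**Figure D3:**
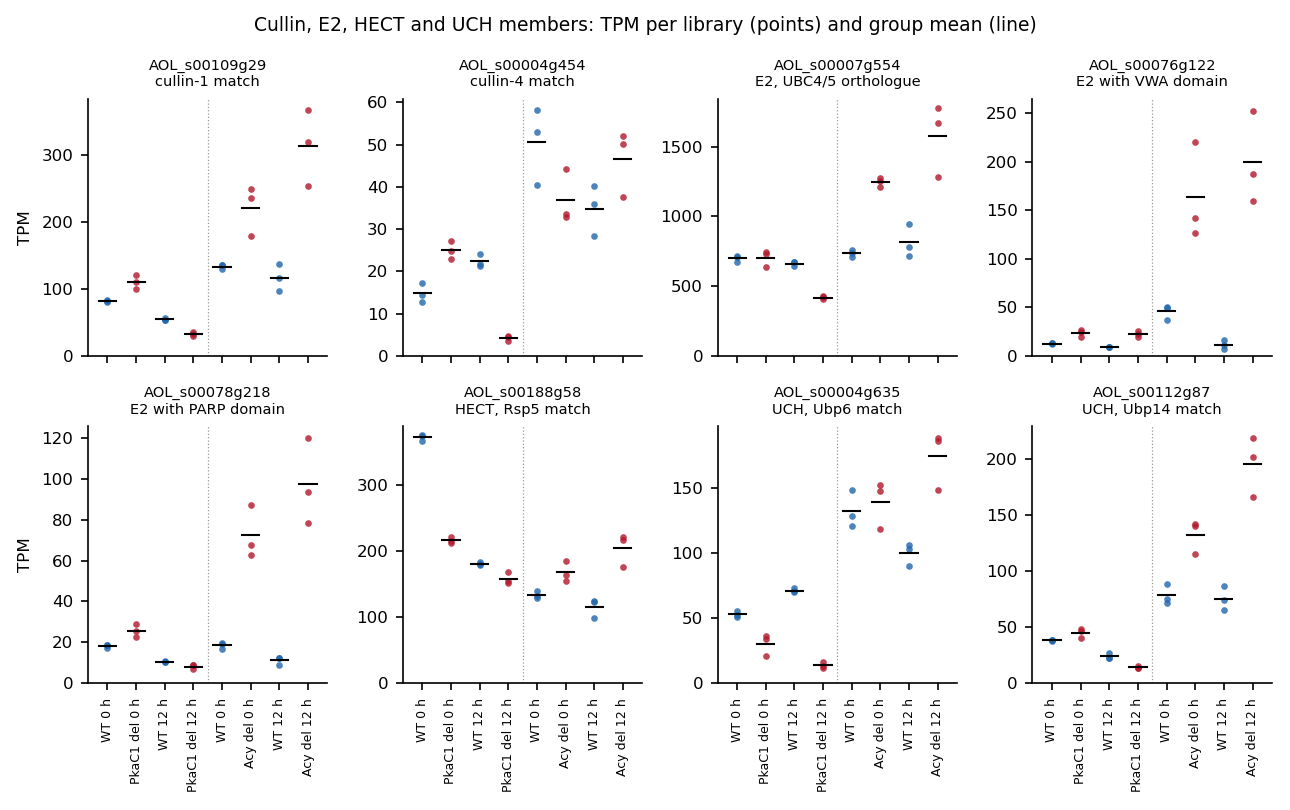
TPM (vertical axes, from 0) of 2 cullins, 3 E2 genes, 1 HECT ligase and 2 UCH genes in each of the 24 libraries (points; blue wild type, red labelled deletion, "del") with the mean of each group of 3 (line); the dotted line parts the PkaC1 experiment (left) from the Acy experiment (right). The induced labelled PkaC1 deletion is the lowest group on the left for AOL_s00109g29 and AOL_s00004g454, and the induced labelled Acy deletion is the highest on the right for AOL_s00109g29, AOL_s00076g122 and AOL_s00078g218.

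Of 6 HECT ligases 0 were called in the untreated Acy comparison and 4 were higher in the induced one, where 45.5% of all genes were higher. After scaling 2 were higher, where 19.9% of all genes were. AOL_s00081g127, the match of a TOM1-like ligase of Neurospora, was at 10.8, 6.91 and 10.7 TPM in induced wild type and 37.3, 31.2 and 20.1 TPM in the labelled Acy deletion (1.53 ± 0.263, adjusted p = 0.000364). AOL_s00188g58, the Rsp5 match and the most abundant of the 6, sorts membrane transporters in yeast. It was at 124, 99.3 and 124 and 221, 217 and 176 TPM in the same groups (0.82 ± 0.13, adjusted p = 0.000197). In untreated groups of the PkaC1 experiment it was at 368, 375 and 376 TPM in wild type and 222, 213 and 216 TPM in the labelled deletion (-0.78 ± 0.0546, adjusted p = 2.52e-07), and it fell on induction in wild type to 184, 179.8 and 181 TPM (-1.03 ± 0.0546, adjusted p = 1.41e-08). Both HECT genes kept these calls after scaling. AOL_s00004g417, the TRIP12 orthologue, AOL_s00193g7, the UBE3C orthologue, and AOL_s00210g360, the UBE3A match, were lower in the induced labelled PkaC1 deletion on both scales (-0.72, -0.65 and -0.79). Of all genes 52% were lower in that comparison, and 31.1% after scaling. In the authors' deposited tables, with their own adjusted p under 0.05, 3 HECT genes were higher and 3 lower there. AOL_s00081g167, the HECTD2 orthologue, was called in neither comparison of the labelled PkaC1 deletion with wild type.

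UCH genes, not all of them deubiquitinating enzymes by their match, were higher in the induced labelled Acy deletion in 15 of 16 tested cases (93.8%, all genes 45.5%). In 0 they were lower. After scaling 10 were higher (62.5%) and 0 lower, beside 19.9% and 30.5% of all genes. Untreated, 2 were higher (12.5%, all genes 26.6%) and 0 lower on both scales. AOL_s00112g87, the match of yeast Ubp14, which takes apart free ubiquitin chains, was at 74.3, 65.3 and 86.8 TPM in induced wild type and 219, 201 and 166 TPM in the labelled deletion (1.36 ± 0.15, adjusted p = 9.95e-06), and its untreated difference was 0.75 ± 0.15, adjusted p = 0.00147. AOL_s00043g535, the USP34 match, was at 12.9, 7.69 and 11.5 and 30.9, 27.5 and 17.8 TPM (1.16 ± 0.255, adjusted p = 0.00197), and AOL_s00215g843, the Ubp12 match, at 46.4, 35.5 and 53.6 and 119, 101 and 76.2 TPM (1.10 ± 0.189, adjusted p = 0.000353). These groups did not overlap.

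In the PkaC1 experiment the UCH genes diverged. AOL_s00004g635 is the match of Ubp6, which works on the proteasome. It was at 72.8, 70.8 and 69.8 TPM in induced wild type and 13.2, 12.1 and 16.5 TPM in the labelled deletion (-2.28 ± 0.172, adjusted p = 6.33e-07). Its untreated groups, at 50.8, 52.6 and 55.8 and 21.1, 33.8 and 36.4 TPM, also stood apart (-0.82 ± 0.172, adjusted p = 0.00147), though that call ended when both wild type groups were reduced to 1 library each. AOL_s00004g304, the Aspergillus ubp16 match, was at 11.8, 11.8 and 12.03 and 2.31, 2.76 and 1.91 TPM induced (-1.96 ± 0.19, adjusted p = 4.15e-06). AOL_s00215g89 went the other way. It matches pan2, the nuclease subunit that shortens poly(A) tails and keeps a UCH domain. It was at 34.8, 36.9 and 35.5 TPM in untreated wild type and 60.6, 90.3 and 107 TPM in the labelled deletion (1.20 ± 0.173, adjusted p = 9.32e-05), and at 34.95, 35.01 and 42.9 and 99.3, 97.1 and 119.8 TPM induced (1.46 ± 0.173, adjusted p = 1.81e-05).

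Both labelled deletions were compared over the 225 members tested in both experiments. Called higher in all 4 comparisons were 7 members (3.11%, all genes 3.34%; after scaling 13 members or 5.78%, all genes 3.83%): AOL_s00043g419, AOL_s00054g408, AOL_s00076g101, AOL_s00083g222 and AOL_s00097g89 among F-box genes, the E2 gene AOL_s00076g122 and the UCH gene AOL_s00215g642. Called lower in all 4 were 2 (0.889%, all genes 2.83%), AOL_s00076g155 and AOL_s00054g266. On TPM these shares are near or under the background. Across the 225 members the untreated log2 fold changes of the labelled deletions had a Pearson r of 0.23 and a Spearman rho of 0.15, and the induced ones 0.11 and 0.13. Genes are not independent replicates, and the points of an experiment share its libraries. For the 26 E2 genes alone r was 0.20 and rho 0.10 untreated, and 0.69 and 0.53 induced. The 26 include AOL_s00076g122, called higher in all 4 comparisons, and AOL_s00054g266, called lower in all 4. No r without these 2 genes was computed. On TPM the induced changes of 24 of the 26 E2 genes were above 0 in the Acy experiment and below 0 in the PkaC1 experiment. After scaling this held for 7 of 26. For the 174 F-box genes r was 0.26 and rho 0.18 untreated, and 0.037 and 0.081 induced.

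The difference between both labelled deletion effects was tested in 1 fit of all 24 libraries. Of the 260 members tested, 31 had passed the filter in the Acy experiment only and 4 in the PkaC1 experiment only. Among the 31 are the 10 F-box genes listed at 0 in every library of the PkaC1 experiment. For such genes the difference is mostly or wholly the effect of 1 experiment. Untreated, the effect was more positive in the Acy experiment for 79 of 260 tested members and more negative for 34, where 48.8% of all 9877 tested genes were called (23.8% and 25%). After scaling the counts were 93 and 36, beside 27% and 24.5% of all genes. Among F-box genes they were 68 and 26 of 209 (76 and 28 scaled). Induced, 192 members were more positive and 13 more negative, where 69.9% of all genes were called (56.7% and 13.2%). After scaling 88 and 47 were left, beside 23.3% and 33.6% of all genes. The 4 cullins were more positive in the Acy experiment on both scales, with a scaled median of 1.03. Experiment and deletion cannot be told apart in this comparison except through each experiment's own wild type.

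**Figure D4:**
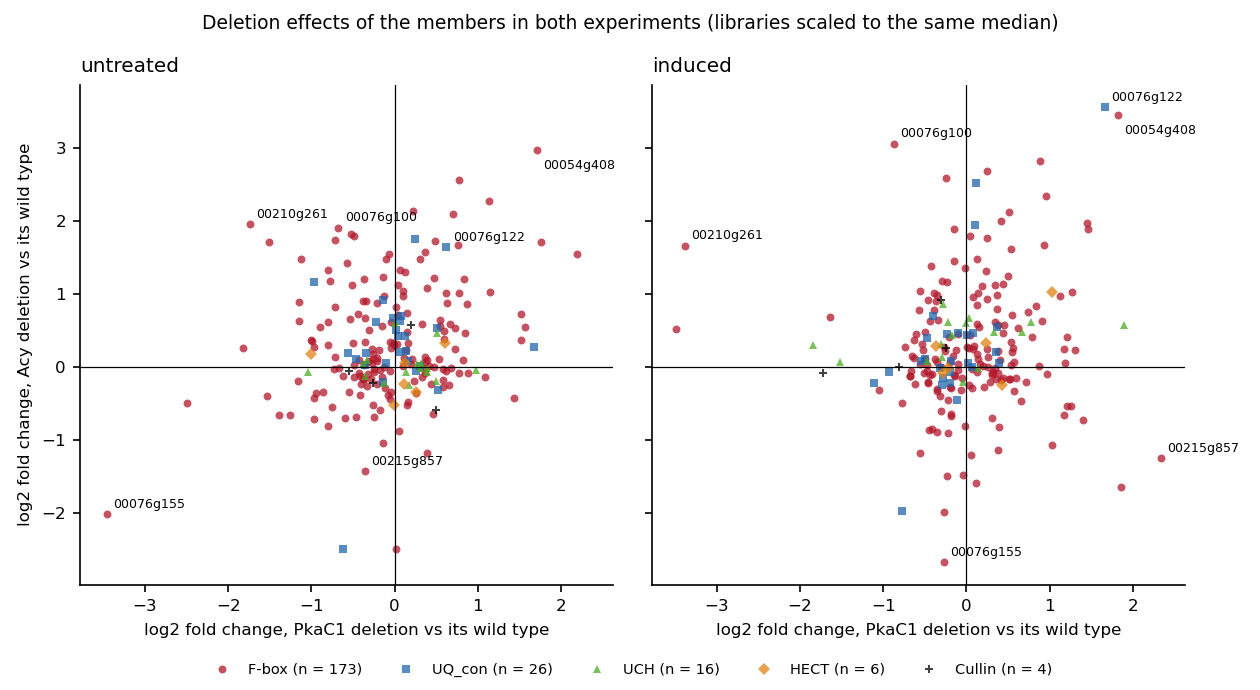
Log2 fold change of each member between labelled deletion and wild type in the PkaC1 experiment (horizontal) and the Acy experiment (vertical), untreated (left) and induced (right), with libraries scaled to the same median; symbols mark the 5 families, 6 genes are named without the prefix AOL_s, and AOL_s00081g294 is drawn with UQ_con. AOL_s00076g100 and AOL_s00210g261 lie at upper left in both panels, and AOL_s00054g408 and AOL_s00076g122 at upper right.

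The response to induction differed between wild type and labelled deletion for 142 of 229 members in the PkaC1 experiment (17 more positive and 125 more negative in the labelled deletion), where 71.9% of all genes were called (18% and 53.9%). After scaling the split was 57 and 51 (all genes 34.3% and 29.9%). For the Acy experiment 49 of 256 differed (42 and 7), where 19.3% of all genes were called (14.2% and 5.1%), and after scaling 11 and 18 (4.75% and 9.99%), so the direction of this difference rests on the scale.

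Other genes of the pathway were taken from lists by domain or Swiss-Prot words. The lists were not made exclusive of each other, and a domain match alone does not show what a gene does. Of all tested genes, 26.6% were higher and 15.6% lower in the untreated labelled Acy deletion (scaled 21.5% and 23.4%). Induced, these shares were 45.5% and 13.7% (scaled 19.9% and 30.5%). In the induced labelled PkaC1 deletion they were 18.9% and 52% (scaled 34.5% and 31.1%). Induction of that strain gave 19.4% and 62.2% (scaled 43.6% and 32.4%). The counts below stand beside these shares. Genes with domains of Skp1, RING-box, Cand1 and other cullin partners numbered 23, all tested in the Acy experiment. They were higher in 5 and lower in 1 untreated, and higher in 16 and lower in 1 induced (6 and 2 scaled). Chosen by domain alone, some may not be partners of cullins. BTB proteins, many of which are receptors of cullin-3 ligases in other organisms, were tested in 29 of 50 genes, of which 18 were higher and 0 lower in the untreated labelled Acy deletion (16 and 1 scaled), with a median of 0.95 against 0.11 over all genes. The 7 genes of the COP9 signalosome, which removes NEDD8 from cullins, were all higher in the induced labelled Acy deletion (6 scaled) and all lower in the induced labelled PkaC1 deletion (4 scaled). In the labelled PkaC1 deletion all 7 also fell on induction on both scales (scaled median -1.12). Proteasome genes were lower in 35 and higher in 1 of 36 in the induced labelled PkaC1 deletion (32 and 1 scaled). In the induced labelled Acy deletion 35 of 38 were higher and 0 lower, but after scaling 8 and 1. RING and U-box ligases were higher in 42 and lower in 2 of 58 tested in that comparison (18 and 6 scaled). Ubiquitin and ubiquitin-like genes were lower in 14 and higher in 1 of 16 in the induced labelled PkaC1 deletion (11 and 1 scaled). The 8 genes of the E1 list, the head of the relay, were lower in 5 and higher in 0 there (3 and 0 scaled). For so few genes, the lower counts are near the shares of all genes. Deubiquitinases and ubiquitin-like proteases without a UCH domain were higher in 14 and lower in 1 of 21 in the induced labelled Acy deletion, but 4 and 4 after scaling. Cdc48, the unfoldase that hands ubiquitinated proteins on, and its cofactors were higher in 4 of 4 there (3 scaled).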

How the data were processed

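RNA-seq levels came as 1 table per experiment. Per the file headers the deposited values are TPM per gene and library, beside the gene length and the Pfam, Swiss-Prot and KO annotation used here to choose members. The submitters' processing notes name HISAT2 and StringTie. The genome build, strand setting and treatment of shared reads were not given in the sources used here. Every library sums to the same total, so its depth is unknown, no counting interval can be given, and the 3 libraries per group set the precision. The authors also deposited, per the file headers, log2 fold changes and p-values of their own comparisons, of which only calls are quoted, always under their name. 8 columns of group means were not used.

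Each experiment was fitted with limma 3.58.1 in R 4.3.3 on log2(TPM + 1), with its 4 groups in 1 fit, over genes that reached 1 TPM in 3 or more libraries, and p-values were adjusted after Benjamini and Hochberg over all tested genes. Interactions and a joint fit of all 24 libraries (with the same filter) tested differences between effects. The fit was tested on simulated data in which genes with a mean log2(TPM + 1) above 3 were changed by known amounts. Many F-box genes lie below that level, so the rates do not cover them. Each gene had the same simulated spread in all groups, whereas the measured PkaC1 wild type groups were tighter than the others. For the induced PkaC1 comparison (8977 genes) the fit recovered 49% of changes of 0.5 and 83% of changes of 1 on the log2 scale. For the induced Acy comparison (9617 genes) it recovered 13% and 61%. Replicate numbers were checked for pairing by correlating deviations from group means. Only the untreated and induced labelled Acy deletion had all 3 pairs above 0.1 (0.137 to 0.435), from the data and not from the labels.

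Alternatives were another pseudocount (0.1), no filter or a minimum of 5 TPM, median scaling, a replicate block, robust variances, only the groups compared, a 2-fold rule, the PkaC1 experiment's wild type groups as 1 library each, and leaving out each library. Genes named are all cullins and HECT ligases, and in the other families the 3 largest changes per direction and comparison among called genes without overlap and with a mean of at least 10 TPM in the higher group, the 3 most abundant, and those called alike in all 4 deletion comparisons, of which the text uses part. AOL_s00076g102, AOL_s00007g152, AOL_s00043g577, AOL_s00080g127 and AOL_s00076g700 in the Acy experiment are shown for their annotation or position and were chosen after their values were seen. Members and lists were chosen with earlier results of these data known. Gene and protein sequences were not analysed here.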

Additional observations from a re-analysis of the deposited data

Results flagged for a closer look

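Counts of members whose effect differed between strains or experiments were 142 for the response to induction in the PkaC1 experiment, 49 for that in the Acy experiment, and 113 (untreated) and 205 (induced) for the labelled deletion effects of both experiments, all by limma's test of the difference. The shares over all genes stand in the report.

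For single genes the same tests found these differences, each as a difference of log2 fold changes. AOL_s00076g100 had a more positive response in the labelled Acy deletion than in wild type (1.50) and a more positive labelled deletion effect in the Acy than in the PkaC1 experiment (2.50 untreated, 4.86 induced). AOL_s00215g857 had a more positive response in the labelled PkaC1 deletion (2.03, lost with each wild type group as 1 library) and a more negative induced effect in the Acy experiment (-2.66). AOL_s00210g261 had a more negative response in the labelled PkaC1 deletion (-2.30) and a more positive untreated effect in the Acy experiment (3.61). The responses of AOL_s00004g454 (-2.88) and AOL_s00076g700 (-3.14) were more negative in the labelled PkaC1 deletion. The response of AOL_s00076g122 was more positive in the labelled Acy deletion (2.27) and that of AOL_s00043g577 more negative (-1.09). The induced effect on AOL_s00109g29 was more positive in the Acy experiment (2.15).

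The table of the PkaC1 experiment also holds 1568 assembled loci without a gene name, outside the comparisons above, of which 6 carry an F-box domain. In 3 of them every labelled deletion library lay above every wild type library at a time point, and in 2 every labelled deletion library lay below every wild type library at both times. MSTRG.10000 had a middle value of 6.34 TPM in the untreated labelled deletion against 2.77 in wild type, and MSTRG.9565 had 19.55 against 2.94. MSTRG.3773 had 6.82 against 1.23 untreated and 0.68 against 0.37 induced. Of the lower ones, MSTRG.9999 had 12.59 against 23.19 untreated and 4.66 against 12.67 induced, and MSTRG.1199 had 2.74 against 6.99 and 2.75 against 4.65. In MSTRG.10653 the groups overlapped at both times. These differences were not tested, and how many of all 1568 loci had groups apart was not counted. Of all tested annotated genes, 64.7% were called between these strains untreated and 70.9% induced. The counts are therefore not read as particular to F-box loci.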

How the results depend on the processing

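Of 267 counts of called members under alternatives, 236 were within 1.5 times the reported count. With the PkaC1 experiment's wild type groups as 1 library each, the counts were 51 (untreated labelled deletion), 79 (induced), 63 (induction in wild type) and 78 (difference of responses). The 2-fold rule left 26, 30, 51, 118 and 69 members in the 5 PkaC1 comparisons in the order untreated, induced, induction in wild type, induction in the labelled deletion and difference of responses, and 60, 87, 9, 1 and 20 in the same Acy comparisons. It left 64 for the untreated difference between experiments. After scaling, the difference of responses in the Acy experiment counted 29 and the induced difference between experiments 135. Fitting only the groups compared gave 5 for induction in the labelled Acy deletion, and has no form for differences of responses or experiments.

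Leaving out single libraries gave 106 to 133, 126 to 149, 129 to 152, 176 to 185 and 135 to 150 called members in the PkaC1 comparisons and 100 to 116, 149 to 191, 23 to 49, 2 to 24 and 14 to 59 in the Acy comparisons, in the order above, and 102 to 119 and 190 to 207 for the differences between experiments. Induction in wild type of the Acy experiment counted 24 without untreated wild type replicate 3 and 23 without induced wild type replicate 2. Induction in the labelled Acy deletion counted 5 without untreated labelled deletion replicate 2. Its difference of responses counted 31 and 27 without untreated labelled deletion replicates 1 and 3, 14 and 15 without induced ones 1 and 2, 28 and 30 without untreated wild type replicates 1 and 3, and 15 without induced wild type replicate 2.

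With the replicate number as a block, induction in the labelled Acy deletion counted 7 in place of 10, and no named call was lost. The induced Acy differences of AOL_s00076g102 and AOL_s00083g90 became -0.00362 and -0.00526 after scaling, that is, after subtracting the shift of the median. Where another cause is possible, it was not tested. Depth is unknown, so members listed at 0 may be present below detection. Only the PkaC1 experiment lists assembled loci without a gene name, and their part in its zeros was not tested.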
